A study of Mus musculus with 4 samples.

Results

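Neutrophil precursors of the mouse spleen were picked out by their azurophil granule transcripts. A cell barcode was taken as a precursor when Elane, Mpo and Prtn3 together made up at least 0.5% of its UMIs (unique molecular identifiers, which stand for counted RNA molecules), provided that fewer than 2 of the basophil and mast cell genes Mcpt8, Prss34, Cpa3 and Ms4a2 were detected. Barcodes with under 500 UMIs, under 250 genes or over 10% of UMIs from mitochondrial genes were left out beforehand. This left 421 precursors among 53945 kept cells. The D3TA group was 2 female C57BL/6J mice with a global, constitutive, heterozygous knock-in of Ccnd3 (T283A) made by CRISPR/Cas9, so that threonine 283 of cyclin D3 is replaced by alanine in every tissue and not only in blood cells. The WT group was 2 female C57BL/6J mice without the allele. The ages were 12 and 16 months, when the knock-in mice show a myeloproliferative neoplasm, but age is not given per mouse. Each mouse gave 1 spleen library, so n = 2 mice per genotype. A count of UMIs per gene does not read the changed codon, so the genotype rests on the labels. Spleens were cut up, strained and freed of red cells by lysis before loading. By its title, the study is about the degradation of cyclin D3 at particular stages of myeloid cell formation.

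Neutrophils are made in waves of granule synthesis. Promyelocytes first make the azurophil, or primary, granules, which hold myeloperoxidase (Mpo) and the serine proteases neutrophil elastase (Elane), proteinase 3 (Prtn3) and cathepsin G (Ctsg). Myelocytes and metamyelocytes then switch to the specific granules, with lactoferrin (Ltf), cathelicidin (Camp) and neutrophilic granule protein (Ngp), while division slows and stops. In adult mice this takes place mainly in bone marrow, and the spleen takes part when blood formation spreads outside the marrow. Cyclin D3 binds the kinases CDK4 and CDK6, which phosphorylate the retinoblastoma protein and so open the way into S phase.

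The 3 genes of the gate and Ctsg are shown by their promoters, because they are read out together in these cells. Each window of 300 bases starts 250 bases before the transcript start in RefSeq on GRCm38.p6. The windows are chr10:79886062-79886361 for Elane (plus strand), chr10:79879417-79879716 for Prtn3 (plus strand), chr11:87793534-87793833 for Mpo (plus strand) and chr14:56102525-56102824 for Ctsg (minus strand). Capitals mark GAGGAA, a purine-rich core of the kind bound by PU.1 and other ETS factors, where it lies on the printed strand.
Elane: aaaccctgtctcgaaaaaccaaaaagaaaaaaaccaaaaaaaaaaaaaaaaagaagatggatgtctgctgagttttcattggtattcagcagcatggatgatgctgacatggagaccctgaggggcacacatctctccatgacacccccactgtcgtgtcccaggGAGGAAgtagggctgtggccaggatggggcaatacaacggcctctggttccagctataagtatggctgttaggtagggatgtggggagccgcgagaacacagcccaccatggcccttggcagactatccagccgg
Prtn3: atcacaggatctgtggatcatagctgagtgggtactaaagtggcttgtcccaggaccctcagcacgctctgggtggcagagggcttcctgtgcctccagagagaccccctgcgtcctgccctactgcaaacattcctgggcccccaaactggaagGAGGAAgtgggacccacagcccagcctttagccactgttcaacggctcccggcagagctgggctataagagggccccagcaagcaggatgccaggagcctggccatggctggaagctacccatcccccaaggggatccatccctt
Mpo: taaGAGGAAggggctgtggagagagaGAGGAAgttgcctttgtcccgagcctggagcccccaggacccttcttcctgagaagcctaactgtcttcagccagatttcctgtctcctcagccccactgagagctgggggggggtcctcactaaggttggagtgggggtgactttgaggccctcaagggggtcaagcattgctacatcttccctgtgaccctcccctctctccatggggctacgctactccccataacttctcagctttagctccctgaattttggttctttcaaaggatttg
Ctsg: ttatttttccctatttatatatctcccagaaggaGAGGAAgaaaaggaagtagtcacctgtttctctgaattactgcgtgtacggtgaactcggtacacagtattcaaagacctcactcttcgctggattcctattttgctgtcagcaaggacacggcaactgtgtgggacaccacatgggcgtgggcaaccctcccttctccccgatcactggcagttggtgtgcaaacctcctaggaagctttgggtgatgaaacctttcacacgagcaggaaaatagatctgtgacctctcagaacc
GAGGAA, searched on both strands, was present in all 4 windows, and in 28.3% of 32851 RefSeq promoter windows of the same length. Its first base lay at -85 in Elane, -95 in Prtn3, -216 in Ctsg, and both -247 and -224 in Mpo, counted from the transcript start. The Myb core AACTG was found in Prtn3, Mpo and Ctsg, against 44.8% of all windows, and the RUNX core TGTGGT in Ctsg, against 16.8%. The C/EBP half-site pattern TTGCNNAA occurred in 10.8% of all windows and its letters are not in these 4. None of these motifs overlapped another. Prtn3 and Elane are neighbours on chromosome 10, with 3072 bases between the end of Prtn3 and the start of Elane in GENCODE's GRCm38 annotation. These matches are letters only, and no binding was measured.

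The 4 libraries held 81416981 to 143811696 UMIs in 9888 to 25829 barcodes. WT replicate 1 stood apart in depth, with a median of 1394 UMIs per kept cell against 7698 to 8111 in the other 3 libraries. Pairs of libraries shared 20 to 96 kept barcode sequences. B cells, which should lack the granule genes, held Elane at 46.9 and 22.1 CPM (the UMIs of a gene scaled to a fixed total for all cells of its kind in a library) in D3TA replicates 1 and 2, against 0.747 and 0.0537 CPM in WT replicates 1 and 2, and these values serve as the background level. Intervals below are exact 95% intervals and cover counting error only.

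The gate genes were high in the precursors by construction, and their values are a description. Summed over all precursors of a library, Elane (chr10:79886247-79888215, plus strand) had 10180 and 8384 CPM in D3TA replicates 1 and 2, against 5956 and 4319 CPM in WT replicates 1 and 2. Prtn3 (chr10:79874476-79883174, plus strand) had 9305 and 6747 CPM in D3TA, against 5928 and 3772 CPM in WT. Mpo (chr11:87793581-87804413, plus strand) had 4258 and 6328 CPM in D3TA, against 5188 and 1166 CPM in WT. The 2 markers outside the gate were present too. Ctsg (chr14:56099881-56102574, minus strand) had 2458 and 1896 CPM in D3TA, against 1929 and 146 CPM in WT. Ms4a3, a membrane protein of granulocyte and monocyte progenitors (chr19:11629496-11640851, minus strand), had 1353 and 1112 CPM in D3TA, against 1114 and 729 CPM in WT. Of these 2, which the gate did not use, Ctsg was detected in 93.3% and 91.3% of D3TA precursors and in 97.4% and 100% of WT precursors, and Ms4a3 in 96.4% and 93.7% of D3TA and 79.5% and 100% of WT precursors. In B cells of the same libraries Ctsg was detected in 13.7% and 4.79% of D3TA cells and in 0.138% and 0.112% of WT cells, whose median depths were 13900 and 8156 UMIs in D3TA and 2782 and 8552 UMIs in WT.

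The balance between the 3 gate genes differed between the libraries. Mpo made up a median of 16.4% and 28.6% of the 3 genes' UMIs per precursor in D3TA replicates 1 and 2, against 29.4% and 10.9% in WT replicates 1 and 2. In the D3TA libraries 13 and 10 precursors lay just inside it, at 0.5 to 0.6% of UMIs, and 30 and 14 other cells lay just outside, at 0.4 to 0.5%. In the WT libraries 0 and 0 precursors lay just inside and 1 and 0 cells just outside. The basophil and mast cell condition kept out 22 and 9 further D3TA cells, and 0 and 0 WT cells.

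**Figure D1:**
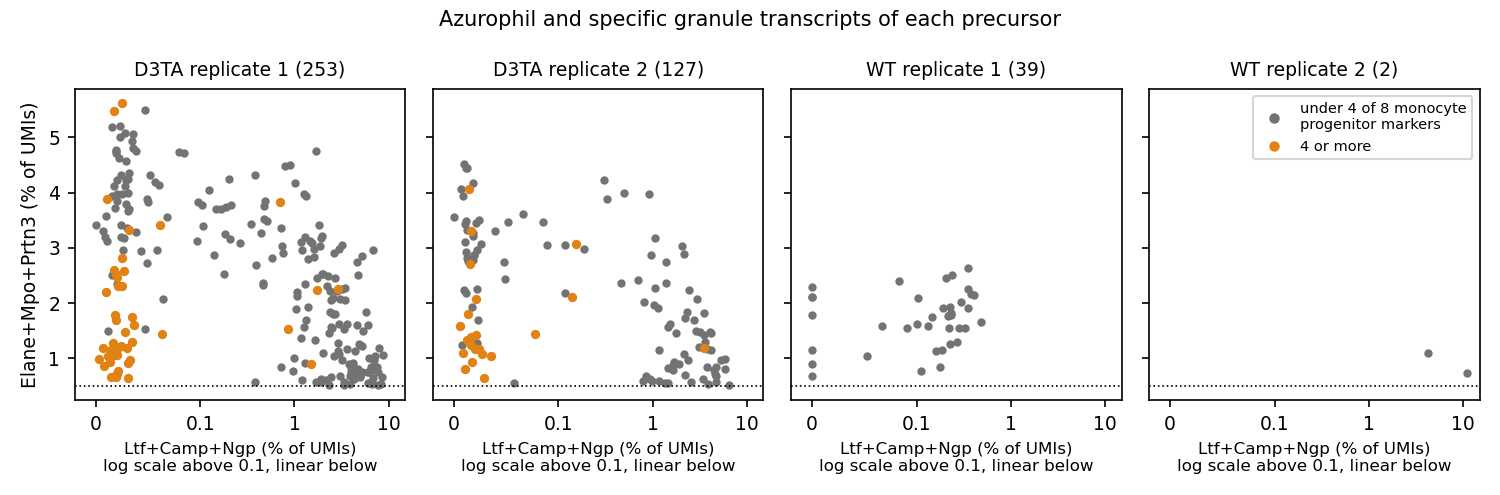
Each point is 1 precursor, with the share of its UMIs from the specific granule genes Ltf, Camp and Ngp on the x axis (linear below 0.1%, log scale above) and from the gate genes Elane, Mpo and Prtn3 on the y axis, in 1 panel per library with its number of precursors. The dotted line is the 0.5% gate and orange points have 4 or more of 8 monocyte progenitor markers. D3TA precursors spread over the whole x axis, whereas the 39 of WT replicate 1 all lie below 0.5% and the 2 of WT replicate 2 above 2%.

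Precursors took a larger share of the D3TA spleens than of the WT spleens. They were 253 of 12500 cells in D3TA replicate 1 (2.02%, 1.78% to 2.29%) and 127 of 10950 in D3TA replicate 2 (1.16%, 0.968% to 1.38%). They were 39 of 22619 cells in WT replicate 1 (0.172%, 0.123% to 0.236%) and 2 of 7876 in WT replicate 2 (0.0254%, 0.00308% to 0.0917%). Both D3TA shares lay above both WT shares and the intervals did not overlap between genotypes, but these intervals leave out the spread between mice. The mean was 1.59% ± 0.611 in D3TA and 0.0989% ± 0.104 in WT (SD, n = 2 mice each), a ratio of 16.1. A two-sided exact permutation test gave p = 0.33, the smallest value that 2 mice against 2 can reach. Leaving out single libraries put the ratio between 9.23 and 62.7, the larger value being that without WT replicate 1. Opening the gate at 0.25% of UMIs raised the D3TA minus WT difference to 2.93 percentage points, against 1.49 points at 0.5%. It also lowered the median depth of D3TA precursors. D3TA replicate 2 then held 269 precursors at a median of 4861 UMIs, against 127 at 33810 UMIs. D3TA replicate 1 held 450 at 24477 UMIs, against 253 at 30779 UMIs. In a shallow cell few UMIs are enough to pass, and background Elane was higher in the D3TA libraries. The part of background RNA in the larger difference was not tested. Shares of this kind move with every other cell type in the spleen.

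Within the neutrophil lineage the share of precursors did not differ between genotypes beyond the spread of the libraries. The lineage was the precursors plus 3 later stages, which have less than 0.5% azurophil transcripts and fewer than 2 of the lymphoid genes Cd79a, Ms4a1, Cd3e and Cd3d. Immature cells had at least 2% of UMIs from Ltf, Camp and Ngp. Transitional and mature cells had at least 3% from the calprotectin genes S100a8 and S100a9, with 0.5 to 2% and under 0.5% from Ltf, Camp and Ngp. Precursors were 5.82% (5.14% to 6.56%) and 5.27% (4.41% to 6.24%) of the lineage in D3TA replicates 1 and 2. In WT they were 39 of 252 lineage cells in replicate 1 (15.5%, 11.2% to 20.5%) and 2 of 98 in replicate 2 (2.04%, 0.248% to 7.18%). The mean difference of -3.21 percentage points was smaller than the spread of the WT libraries (SD 9.50, n = 2; exact permutation p = 1), and it turned to 3.51 without WT replicate 1 and to 1.60 with the gate at 0.25%. The later stages exclude cells with 2 or more lymphoid genes and the precursors do not. With that condition on precursors too, the shares were 5.12% and 4.80% in D3TA and 8.19% and 2.04% in WT, a difference of -0.155 points.

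**Figure D2:**
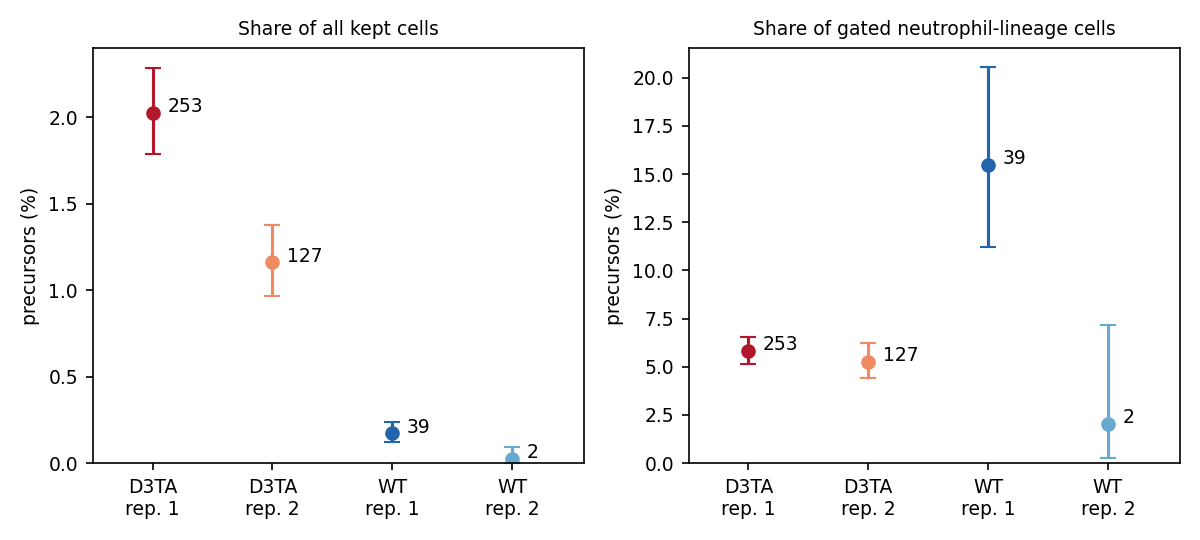
Precursors as a percent of all kept cells (left) and of the gated neutrophil lineage (right) in each library, with exact 95% intervals and the number of precursors beside each point. On the left both D3TA libraries, at 2.02% and 1.16%, lie above both WT libraries, and on the right WT replicate 1, at 15.5%, lies above the rest.

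The 41 WT precursors were too few, and too unlike each other, for a test of expression against D3TA. The test had been set to need 20 precursors in every library, and WT replicate 2 held 2. The 39 cells of WT replicate 1 were shallow, with a median of 2755 UMIs, against 30779 and 33810 UMIs in D3TA precursors and 27439 UMIs in WT replicate 2. They carried B cell transcripts. Cd79a, the signalling chain of the B cell receptor, was detected in 32 of the 39 and stood at 702 CPM (552 to 880), against 19.4 CPM (16.5 to 22.7) and 18.7 CPM (14.9 to 23.3) in D3TA precursors. All 5 B cell markers were detected in them and summed to 2322 CPM, while the 5 summed to 91.5 and 95.6 CPM in D3TA precursors and to 54.7 CPM in WT replicate 2, where Cd79a, Ms4a1 and Pax5 were at 0. At least 2 of the 4 lymphoid genes were found in 20 of the 39, against 32 of 253 and 12 of 127 D3TA precursors and 0 of 2 in WT replicate 2. Scrublet, which scores doublets, marked 8 and 0 precursors in the D3TA libraries and 0 and 0 in the WT libraries. In WT replicate 1 its automatic threshold marked 0% of all cells, and a mean of the other libraries' thresholds was used. The 0 there therefore cannot show whether those cells are doublets. Without the cells that had at least 2 lymphoid genes, the mean share was 1.41% in D3TA and 0.0547% in WT, a ratio of 25.8. The part of B cell RNA in the WT precursors' profiles was not tested.

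Values of the WT precursors are therefore given side by side with D3TA, with no test. Cebpe, the factor that drives the specific granule program, had 343 and 241 CPM in D3TA precursors, against 103 CPM in WT replicate 1 and 692 CPM in WT replicate 2. Ficolin B (Fcnb) had 875 and 782 CPM in D3TA, against 215 and 1367 CPM in WT. Ccnd3 itself had 156 CPM (147 to 164) and 134 CPM (123 to 145) in D3TA precursors, against 187 CPM (114 to 289) and 219 CPM (113 to 382) in WT, where it rests on 20 and 12 UMIs. Cdk6 had 333 CPM (321 to 346) and 662 CPM (637 to 686) in D3TA, against 187 CPM (114 to 289) and 91.1 CPM (29.6 to 213) in WT, on 20 and 5 UMIs. Cdk4 had 156 CPM (147 to 165) and 136 CPM (125 to 148) in D3TA, against 65.6 CPM (26.4 to 135) and 36.4 CPM (4.41 to 132) in WT, on 7 and 2 UMIs. For Cebpe and Fcnb the D3TA values lay between the 2 WT values. Both D3TA sums of Cdk6 and Cdk4 lay above both WT sums, but D3TA precursors with 2% or more specific granule RNA, as in WT replicate 2, had Cdk4 at only 59.6 and 51.8 CPM and Cdk6 at 140 and 236 CPM, within the intervals of WT replicate 2 for Cdk4 and, in D3TA replicate 1 alone, for Cdk6. The 2 cells of WT replicate 2 both had over 2% specific granule transcripts, whereas all cells of WT replicate 1 had under 0.5%. In D3TA precursors with under 0.1% and with 0.1 to 0.5%, given below, Cdk6 lay above the interval of WT replicate 1. Cdk4 in those with under 0.1% also lay above the interval of WT replicate 1. The part of depth and B cell RNA in these gaps was not tested.

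D3TA precursors themselves ran from cells with almost no specific granule RNA to cells that met the 2% limit of the immature stage. Their largest shares from Ltf, Camp and Ngp were 8.63% and 6.44% in replicates 1 and 2. The medians of immature cells were 7.55% and 7.15%. Grouped by their share of Ltf, Camp and Ngp, in bins chosen after the values were seen, 99 and 58 cells of D3TA replicates 1 and 2 had under 0.1%, 23 and 9 had 0.1 to 0.5%, 48 and 26 had 0.5 to 2%, and 83 and 34 had 2% or more. Ctsg, which the gate did not use, had 4057, 2837, 1834 and 418 CPM over the 4 bins in replicate 1 and 2910, 2003, 623 and 367 CPM in replicate 2. Mpo and Elane are gate genes, so every cell in each bin had to hold them or Prtn3, and their values are a description. Mpo had 5787, 6157, 4519 and 1451 CPM in replicate 1 and 8624, 8052, 3670 and 2325 CPM in replicate 2. Elane had 10960, 15320, 11870 and 6868 CPM in replicate 1 and 8978, 11630, 8222 and 6256 CPM in replicate 2. In both libraries Ctsg was highest in the bin with the least specific granule RNA. The second bin of replicate 2 holds only 9 cells.

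Other genes also changed along this axis in both D3TA libraries, but the bins differ in their mix of cells. Of the 99 and 58 cells in the lowest bin, 40 and 19 had 4 or more of the monocyte progenitor markers listed below. In the same bin 10 and 22 cells had 4 or more of the stem and early progenitor markers listed below. Such cells were few in the higher bins, and the part of this mix in the changes was not tested. Cebpe had 157, 402, 432 and 548 CPM over the bins in replicate 1 and 118, 317, 375 and 415 CPM in replicate 2. Fcnb had 254 CPM in the lowest and 1535 CPM in the highest bin of replicate 1, and 230 and 1498 CPM in those of replicate 2. Lcn2, the iron-scavenging lipocalin of specific granules, had 164 and 4025 CPM in the lowest and highest bins of replicate 1, and 54.3 and 2482 CPM in those of replicate 2. Npm1, Calr and Srm, chosen after their values were seen, were lower in the highest bin than in the lowest. The nucleolar protein Npm1 had 1803 and 309 CPM in the lowest and highest bins of replicate 1 and 1966 and 355 CPM in those of replicate 2. The endoplasmic reticulum chaperone Calr had 1108 and 196 CPM in replicate 1 and 1565 and 253 CPM in replicate 2, and spermidine synthase (Srm) had 179 and 10.1 CPM in replicate 1 and 165 and 10.8 CPM in replicate 2.

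Cell cycle genes did not all follow the axis in the same way. Cdk6 had 488, 351, 271 and 140 CPM over the bins in replicate 1 and 921, 691, 390 and 236 CPM in replicate 2. Cdk4 had 235 and 59.6 CPM in the lowest and highest bins of replicate 1 and 196 and 51.8 CPM in those of replicate 2. Ccnd3 ran against its kinases, with 90.7, 143, 164 and 248 CPM in replicate 1 and 72.8, 82.7, 229 and 225 CPM in replicate 2. Mki67, a nuclear protein of dividing cells, had 292 and 521 CPM in the lowest and highest bins of replicate 1 and 387 and 802 CPM in those of replicate 2. The replication gene Mcm5 had 169 and 160 CPM in replicate 1 and 209 and 216 CPM in replicate 2. So the lowest bin had more Cdk4 and Cdk6 CPM than the highest, about as much Mcm5 and less Mki67 and Ccnd3. No test was made along the bins, whose mix of cells differs as given above.

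**Figure D3:**
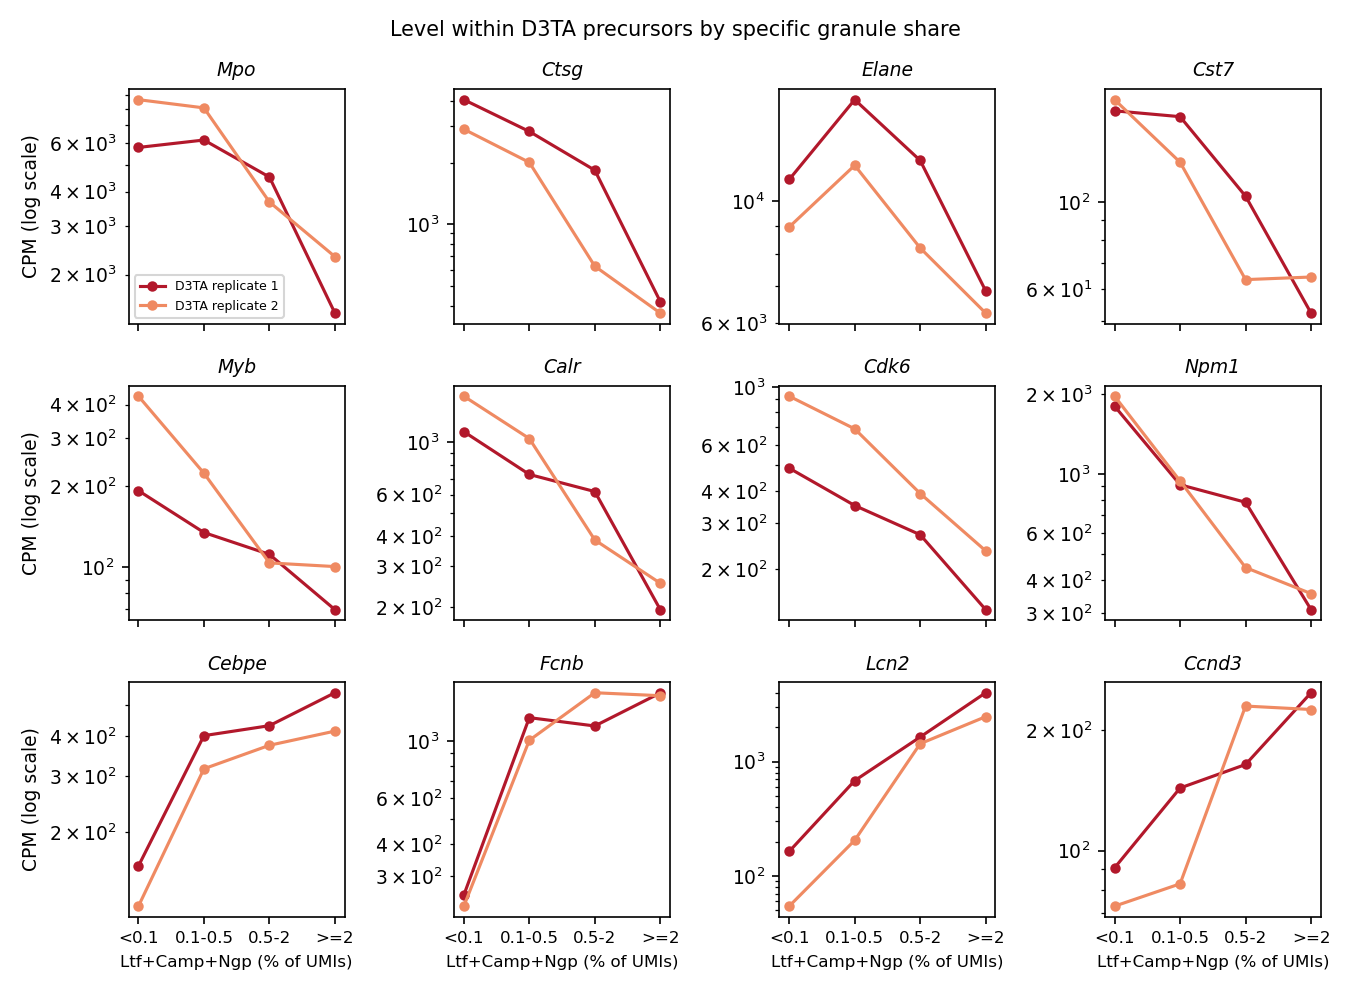
Level (CPM, log scale) of 12 genes in D3TA precursors grouped by the share of their UMIs from Ltf, Camp and Ngp, with 1 line per library. Ctsg, Cst7, Myb, Calr, Cdk6 and Npm1 are lower in the highest bin than in the lowest in both libraries, and Cebpe, Fcnb, Lcn2 and Ccnd3 are higher.

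Some D3TA precursors also carried monocyte genes. At least 4 of 8 monocyte progenitor markers (Irf8, Ly86, Csf1r, F13a1, Klf4, Ccr2, Ms4a6c, Cx3cr1) were detected in 45 of 253 (17.8%) and 22 of 127 (17.3%) D3TA precursors, and in 0 of 39 and 0 of 2 WT precursors, where the shallow cells of WT replicate 1 give fewer chances to detect a gene. Of these cells 40 of 45 and 19 of 22 lay in the bin with under 0.1% specific granule RNA. Genes that did not choose them also differed from the other precursors in both libraries, but those others span all bins. The whole bin with under 0.1% was itself low in Fcnb and Cebpe, as given above. No comparison within that bin was made, so the part of the granule stage in these differences was not tested. Fcnb had 144 and 177 CPM in them, against 1117 and 953 CPM in the other precursors. Cebpe had 68.3 and 66.0 CPM in them, against 434 and 290 CPM in the others, and Ly6c2, a surface protein of monocytes and immature neutrophils, had 1720 and 1623 CPM, against 1154 and 1232 CPM. Mpo differed little, with 3767 and 6226 CPM in them and 4420 and 6357 CPM in the others. F13a1, coagulation factor XIII, which helped to choose them, had 503 and 704 CPM in them, against 27.8 and 54.1 CPM in the others.

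At least 4 of 8 stem and early progenitor markers (Cd34, Kit, Flt3, Sox4, Hlf, Mecom, Meis1, Gata2) were found in 11 of 253 (4.35%) and 23 of 127 (18.1%) D3TA precursors and in 0 of 41 WT precursors. The shallow cells of WT replicate 1 again give fewer chances to detect a gene. The 2 cells of WT replicate 2 had 2% or more specific granule RNA, and no D3TA precursor in that bin had 4 stem markers. In the D3TA cells with 4 or more stem markers Camp had 1019 and 83.7 CPM, against 12300 and 8385 CPM in all precursors of the library. Cdk6 had 715 and 1157 CPM in them, against 333 and 662 CPM in all precursors, and Myb, a factor of dividing progenitors, had 224 and 543 CPM, against 136 and 288 CPM. The D3TA libraries thus differed in how many precursors carried early markers, and D3TA replicate 2, with the larger number, also had the higher Cdk6 and Myb sums over all precursors. Markers of other cell types were low in D3TA precursors. The 4 T cell markers summed to 35.4 and 13.1 CPM, the 6 basophil and mast cell markers to 13.5 and 20.1 CPM, with Cd200r3 at 0 in replicate 2, and the 5 mature neutrophil markers to 120 and 88.1 CPM. The 6 erythroid markers summed to 74.7 and 30.0 CPM, the 4 plasma cell markers to 144 and 173 CPM and the 5 dendritic cell markers to 55.7 and 53.2 CPM. The 4 macrophage markers summed to 84.4 and 109 CPM, with C1qa, C1qb and Cd5l at 0 in replicate 2.

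With WT cells few, D3TA precursors were set against the later D3TA stages, which held 2529 and 1437 immature, 519 and 475 transitional and 1045 and 370 mature cells. UMIs were summed per library and stage and all 8 sums were fitted together with edgeR's quasi-likelihood test, with the library as a block. Fold changes are log2 of precursor over the other stage after TMM scaling, while CPM values are unscaled. Precursors held more RNA per barcode, with medians of 30779 and 33810 UMIs, against 10730 and 10220 UMIs in immature and 3987 and 3406 UMIs in mature cells, so a CPM level is not a level per cell. Against immature cells 6882 of 11901 genes (57.8%) passed an adjusted p of 0.05, 3416 (28.7%) higher and 3466 (29.1%) lower in precursors. Of the called genes 99.8% had the same sign in both libraries, but the calls come from a fit to these same libraries. That agreement is therefore largely set by the calling. With so many genes called, the number of calls in a list is less informative than its direction and size. The median gene stood at -0.03 and moved to 0.36 without scaling factors, where 4687 genes were higher and 2114 lower. Each of 16 gene lists is given by its counts and median, to be read against these values.

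The granule genes split by granule. Of 13 azurophil list genes outside the gate, 9 rose and 2 fell against immature cells (median 2.93). Precursors and immature cells were themselves separated by their share of Elane, Mpo and Prtn3. The direction of azurophil genes read out together with these is therefore partly set by the gates. Ctsg had 2458 and 1896 CPM in precursors, against 13.2 and 4.88 CPM in immature cells (log2 fold change 7.66 ± 0.32 SE, edgeR adjusted p = 4.72e-08). The immature values lie under the 16.9 and 5.96 CPM of B cells, so the fold rests on a background level. Cst7, cystatin F, which inhibits the proteases that activate granule enzymes, had 122 and 132 CPM, against 4.20 and 1.57 CPM (5.06 ± 0.29). Prss57, an azurophil protease, had 251 and 226 CPM, against 24.1 and 18.5 CPM (3.09 ± 0.19), and Ms4a3 had 1353 and 1112 CPM, against 122 and 90.4 CPM (3.16 ± 0.21). Lysozyme (Lyz2), found in several granule types, fell by 3.26 and Igsf6 fell by 0.83.

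All 16 tested genes of specific and gelatinase granules outside the gates fell (median -2.80), as did 19 of 21 genes of mature neutrophils (median -1.98), and 0 rose in either list. Gelatinase B (Mmp9), which cuts matrix proteins, had 15.3 and 6.09 CPM in precursors, against 733 and 773 CPM in immature cells (-6.53 ± 0.37, edgeR adjusted p = 1.24e-07). The collagenase Mmp8 had 18.6 and 12.0 CPM, against 625 and 621 CPM (-5.75 ± 0.30), and Cd177, a surface partner of proteinase 3, had 136 and 129 CPM, against 1043 and 1386 CPM (-3.58 ± 0.24). Among mature genes the formyl peptide receptor Fpr2 had 7.83 and 5.39 CPM, against 238 and 309 CPM (-5.68 ± 0.30). Ly6g, the usual surface marker of mouse neutrophils, had 9.94 and 4.22 CPM, against 482 and 380 CPM (-6.36 ± 0.29). The immature stage was itself chosen by specific granule transcripts, so the direction of the specific granule genes is partly set by the gates.

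**Figure D4:**
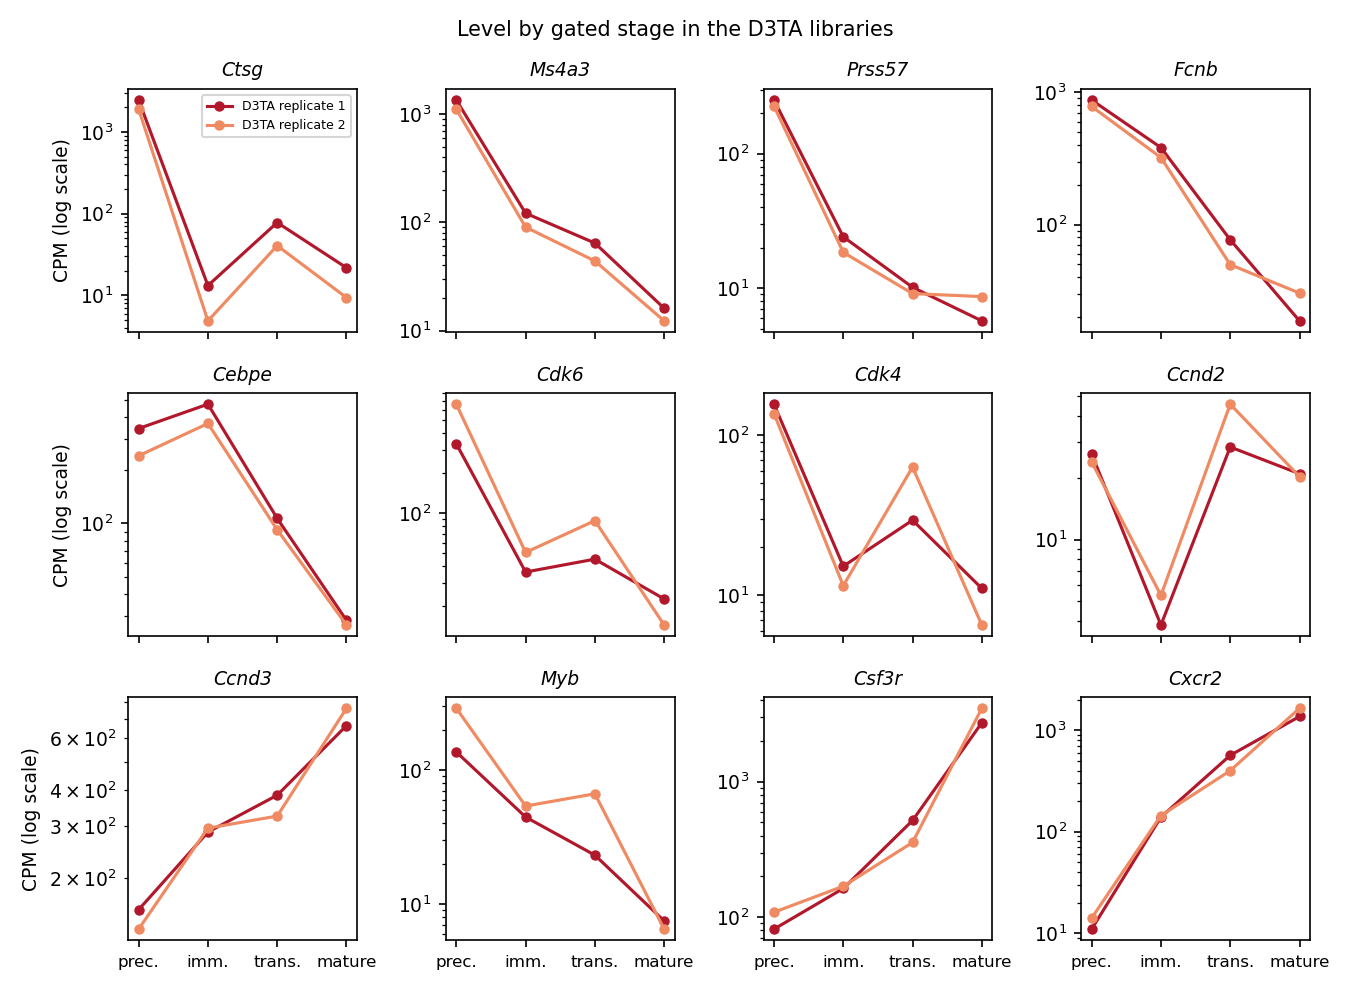
Level (CPM, log scale) of 12 genes from precursors through immature and transitional to mature cells in the 2 D3TA libraries. Ctsg, Ms4a3, Prss57, Fcnb, Cdk6, Cdk4 and Myb are higher in precursors than in immature cells in both libraries, while Ccnd3, Csf3r and Cxcr2 are lower in precursors than at any later stage.

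Transcription factors of the lineage moved both ways, with 11 of 30 higher and 13 lower in precursors than in immature cells. Cebpa, which directs the first step to granulocytes and monocytes, had 28.7 and 45.2 CPM in precursors, against 3.38 and 4.48 CPM in immature cells (2.82 ± 0.24, edgeR adjusted p = 2.29e-06). Myc, a driver of growth, had 38.2 and 47.3 CPM, against 2.80 and 2.09 CPM (3.68 ± 0.26). Gfi1, a repressor needed for granulocytes, rose by 1.28, Myb by 1.61. Cebpe fell by 0.92 and Spi1, which encodes PU.1, by 0.69. Trib1, a pseudokinase that targets C/EBP alpha for destruction, had 3.23 and 4.22 CPM, against 43.6 and 63.0 CPM (-4.23 ± 0.27).

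Early and monocytic genes were higher in precursors. Of 17 stem and early progenitor genes, 13 rose and 1, Erg, fell (median 2.52). Cd34 had 11.3 and 33.7 CPM in precursors, against 0.52 and 0.17 CPM in immature cells (5.17 ± 0.52, edgeR adjusted p = 6.39e-06), and Sox4, a factor of progenitors, had 12.4 and 26.2 CPM, against 0.23 and 0.52 CPM (5.25 ± 0.47). Of 17 monocyte progenitor genes, 12 rose and 0 fell (median 1.65). F13a1 had 146 and 197 CPM, against 6.76 and 1.86 CPM (5.12 ± 0.46). Without the cells with 4 or more monocyte markers 4 rose and 7 fell (median -0.83), but those cells were picked by 8 genes of this list, so a drop in those genes, Klf4 and Ms4a6c among them, is set by the choice. Of the stem list, which had no part in that choice, 10 of 16 genes were higher and 1 lower without those cells (median 1.61).

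Genes of protein production were higher in precursors. Of 27 nucleolar and ribosome-making genes 26 rose and 0 fell (median 2.87). Srm had 96.2 and 97.7 CPM in precursors, against 1.89 and 1.51 CPM in immature cells (5.38 ± 0.32, edgeR adjusted p = 1.86e-07). Fibrillarin (Fbl), the RNA methylase of the nucleolus, had 168 and 166 CPM, against 10.5 and 8.72 CPM (3.72 ± 0.24). Of 28 endoplasmic reticulum folding genes 21 rose and 2 fell (median 1.47). Calr had 714 and 1038 CPM, against 71.4 and 82.7 CPM (3.10 ± 0.22), and the disulfide isomerase Pdia6 had 426 and 345 CPM, against 32.1 and 34.7 CPM (3.15 ± 0.23). The exceptions were Ddit3, a stress factor, which fell by 1.20, and Dnajb9, which fell by 0.79. In both lists the precursor sums of these named genes lay above the immature sums in both libraries.

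Replication genes and mitotic genes did not move together. Of 45 S phase genes 34 rose and 0 fell against immature cells (median 0.96), whereas of 52 G2/M genes 2 rose and 22 fell (median -0.45). Gins1, of the replicative helicase, had 46.1 and 48.3 CPM in precursors, against 9.11 and 10.3 CPM in immature cells (1.89 ± 0.22, edgeR adjusted p = 1.50e-05). Kif23, a kinesin of cell division, had 57.9 and 81.0 CPM, against 101 and 135 CPM (-1.17 ± 0.20), and the 2 G2/M genes that rose were Cks1b and Cbx5. Without scaling factors the G2/M counts became 5 higher and 5 lower (median -0.05), while the S phase counts became 42 higher and 0 lower (median 1.35). Leaving the factors out shifts all genes alike, and in both fits the G2/M median lay below that of all genes (-0.03 with factors, 0.36 without) and the S phase median above it.

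A share of cells with cycling genes gave another view. After each cell was thinned to 2000 UMIs, 2 or more of Mki67, Top2a, Birc5, Ube2c and Cdk1 were detected in 160 of 243 (65.8%, 59.5% to 71.8%) and 78 of 120 (65.0%, 55.8% to 73.5%) D3TA precursors. The same held for 35.5% and 35.3% of immature and 3.00% and 0.294% of mature cells of those libraries. Unthinned, the means were 96.3% in precursors, 43.8% in immature and 4.18% in mature cells. Thinning left out 10 and 7 precursors, 220 and 125 immature cells and 77 and 30 mature cells. The mean difference to immature cells was 30.0 percentage points over 2 libraries and 11.7 points at 1000 UMIs. An exact permutation that treats the 4 values as independent gave p = 0.33, its smallest value, and since both stages come from the same mice, permuting within mice could not go below 0.5. The summed level of the same 5 genes was 1664 and 1694 CPM in precursors, against 1625 and 1867 CPM in immature cells, which overlap. Since the share and the level do not run alike, no order between precursors and immature cells is read from the share. Against mature cells, at 245 and 95.4 CPM, both measures were higher in precursors. In WT replicate 1, 4 of 30 deep enough precursors (13.3%, 3.76% to 30.7%) passed the same criterion. That value is unsteady: repeated thinning of the same 30 cells gave 3 to 6, the stricter cell filter gave 0 of 27, and these cells carry the B cell transcripts described above.

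The cyclin D genes and their kinases differed in direction. Cdk4 had 156 and 136 CPM in precursors, against 15.2 and 11.5 CPM in immature cells (3.06 ± 0.26, edgeR adjusted p = 1.87e-06), and Cdk6 had 333 and 662 CPM, against 36.2 and 50.8 CPM (3.07 ± 0.27, edgeR adjusted p = 2.43e-06). Ccnd2 had 26.1 and 23.9 CPM, against 3.84 and 5.35 CPM (2.09 ± 0.22). Ccnd3, the gene that carries the knock-in (chr17:47505051-47599691, plus strand), had 156 and 134 CPM in precursors, against 287 and 296 CPM in immature cells (-1.41 ± 0.22, edgeR adjusted p = 0.000148). Ccnd1 was near 1 CPM or under at both stages (-1.02 ± 0.75, edgeR adjusted p = 0.263). Among CDK inhibitors, p27 (Cdkn1b) had 26.1 and 35.8 CPM, against 64.0 and 75.3 CPM (-1.58 ± 0.18), and Cdkn2d fell by 1.74. Over the 25 genes of cyclin D, CDK and RB, 7 rose and 10 fell (median -0.19), and without scaling factors, which shifts all genes upwards, 9 rose and 7 fell.

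Genes that act in the removal of D-type cyclins gave 3 of 15 higher and 5 lower in precursors. Gsk3b, a kinase that phosphorylates cyclin D1 ahead of its destruction, had 77.7 and 117 CPM in precursors, against 135 and 189 CPM in immature cells (-1.14 ± 0.21, edgeR adjusted p = 0.000527). Ambra1, the substrate receptor of the ubiquitin ligase for D-type cyclins, fell by 0.62, and its partner Ddb1 rose by 0.94. The deubiquitinase Usp10 had 21.0 and 30.2 CPM, against 4.10 and 6.57 CPM (1.89 ± 0.23). The list's median was 0.21, and without scaling factors, under the same shift of all genes, 7 of the 15 rose and 2 fell (median 0.61).

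Genes by which neutrophils sense, stick and kill were mostly lower in precursors. All of the called oxidase genes, 7 of 8, fell (median -0.96), among them Cybb, the catalytic subunit of the phagocyte NADPH oxidase, with 379 and 409 CPM in precursors, against 1941 and 2421 CPM in immature cells (-2.86 ± 0.22, edgeR adjusted p = 1.01e-06). Ncf4 missed the threshold without the library block (-0.89). Of 18 adhesion and chemokine receptor genes 5 rose and 11 fell (median -1.35). Cxcr2, which draws neutrophils out of the marrow, had 10.9 and 14.1 CPM, against 139 and 144 CPM (-3.92 ± 0.29), and Cd48, an adhesion protein of progenitors, had 39.9 and 57.2 CPM, against 6.67 and 5.87 CPM (2.50 ± 0.22). Of 14 inflammatory genes 0 rose and 10 fell (median -1.65), with Inhba, the activin A subunit, at 24.0 and 21.3 CPM, against 186 and 227 CPM (-3.55 ± 0.21). Of 25 growth factor receptor and JAK-STAT genes 5 rose and 12 fell (median -0.98), and without the cells with monocyte markers 1 of 24 rose and 11 fell, where Csf1r helped to pick those cells. Stat3 had 89.2 and 113 CPM, against 189 and 242 CPM (-1.49 ± 0.23), and the G-CSF receptor Csf3r fell by 1.20. Kit, the receptor for stem cell factor, rose by 1.01, and Il6st, the shared chain of the IL-6 family, stood at 2.18 but at -0.68 without the cells with monocyte markers.

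**Figure D5:**
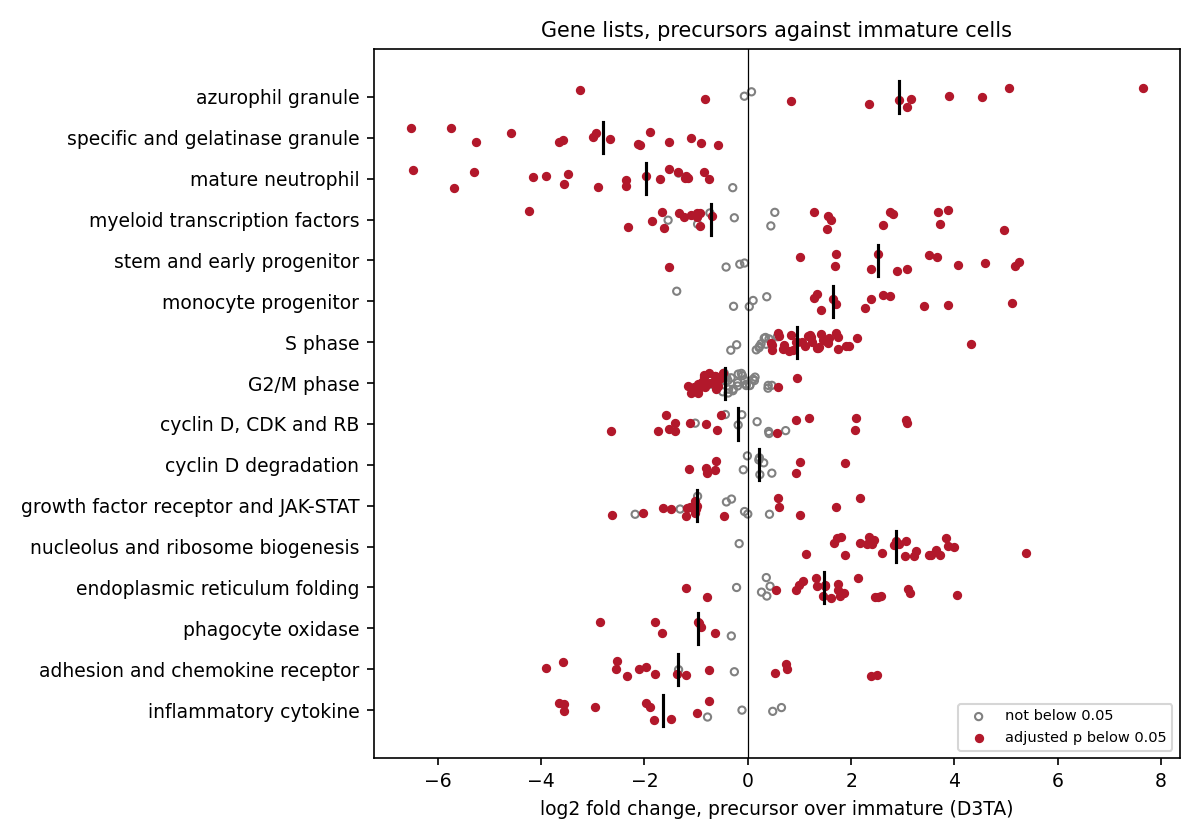
Log2 fold change of D3TA precursors over immature cells for every tested gene of the 16 lists, gate genes left out. Points are genes, red where the adjusted p is below 0.05, and black bars are list medians. Nucleolar, stem, azurophil and folding genes lie mostly to the right of 0 and specific granule, mature neutrophil and inflammatory genes to the left.

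Among all genes past the threshold with at least 100 CPM where higher, the largest rises after Ctsg were in Dmkn, with 110 and 107 CPM in precursors, against 0.98 and 1.11 CPM in immature cells (6.31 ± 0.26, edgeR adjusted p = 4.72e-08), and Gria3, a glutamate receptor subunit, with 138 and 286 CPM, against 2.70 and 1.28 CPM (6.27 ± 0.48). The others of the 12 largest were F13a1, Cst7, Phgdh, which begins serine synthesis, C1qbp, Mt1, Nme2, Mif, Lgals1 and Sdf2l1, at 4.05 to 5.12. The 12 largest falls, from -6.53 to -4.73, were in Mmp9, Ly6g, St3gal5, Ifitm6, Scrg1, Mmp8, Plbd1, Fpr2, AA467197, Retnlg, Mmp25 and Chil1. Ifitm6 had 55.2 and 27.6 CPM, against 2178 and 1964 CPM (-6.07 ± 0.31). Retnlg, a resistin-like protein of neutrophils, had 85.4 and 64.2 CPM, against 2464 and 2006 CPM (-5.31 ± 0.28).

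Against mature cells the precursors differed more widely, with 8353 of 11901 genes (70.2%) past the threshold, 4532 (38.1%) higher and 3821 (32.1%) lower, and a median gene at 0.18. Without scaling factors 5322 were higher and 3084 lower, with the median at 0.54. All 21 mature neutrophil genes fell (median -6.54). Il1b, the inflammatory cytokine, had 7.21 and 3.28 CPM in precursors, against 3064 and 4383 CPM in mature cells (-9.90 ± 0.53, edgeR adjusted p = 1.69e-08), and Cxcr2 had 10.9 and 14.1 CPM, against 1366 and 1646 CPM (-7.30 ± 0.33). Csf3r had 81.8 and 109 CPM, against 2715 and 3470 CPM (-5.39 ± 0.32). For both receptors the precursor sums lay below the mature sums in both libraries.

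Other lists against mature cells differed from those against immature cells. All 45 S phase genes rose (median 3.11), and 48 of 52 G2/M genes rose and 2 fell (median 2.59), among them Cdk1 with 200 and 156 CPM, against 17.6 and 9.40 CPM (3.25 ± 0.26, edgeR adjusted p = 4.13e-07). Of the specific granule genes 5 rose and 9 fell (median -0.79): Chil3, a chitinase-like protein, had 2044 and 2008 CPM, against 301 and 288 CPM (2.41 ± 0.22), and Mmp8 had 18.6 and 12.0 CPM, against 987 and 984 CPM (-6.39 ± 0.31). Of 13 azurophil genes 9 rose and 3 fell (median 4.39), and Fcnb had 875 and 782 CPM, against 18.7 and 30.4 CPM (4.80 ± 0.32). Fcnb, though on this list, was higher in the precursor bin with the most specific granule RNA than in the lowest, as given above. Mature cells too were separated from precursors by Elane, Mpo and Prtn3. The direction of the azurophil genes is therefore again partly set by the gates. Mature cells were also chosen by a low share of Ltf, Camp and Ngp, a limit that precursors did not have. A rise of specific granule genes read out together with these 3 is therefore partly set by the gates too. Of the nucleolar genes 26 of 27 rose and 1 fell (median 2.81), and of the folding genes 23 of 28 rose and 4 fell (median 1.99). Of the remaining lists, given as higher and lower of those tested, transcription factors had 12 and 13 of 30, stem genes 11 and 1 of 17, monocyte progenitor genes 6 and 5 of 17, cyclin D, CDK and RB 13 and 7 of 25, and cyclin D degradation 5 and 7 of 15. Growth factor receptors had 2 and 15 of 25, oxidase genes 1 and 4 of 8 (3 and 3 without scaling factors), adhesion genes 3 and 14 of 18 and inflammatory genes 1 and 13 of 14.

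Ccnd3 was lower in precursors than in mature cells, with 156 and 134 CPM, against 664 and 761 CPM (-2.67 ± 0.23, edgeR adjusted p = 5.66e-07), whereas Cdk6, at 333 and 662 CPM against 22.7 and 14.5 CPM (4.13 ± 0.31), and Cdk4, at 156 and 136 CPM against 11.0 and 6.51 CPM (3.58 ± 0.32), were higher. Ccnd2 had 26.1 and 23.9 CPM in precursors, against 20.9 and 20.2 CPM in mature cells (-0.10 ± 0.24, edgeR adjusted p = 0.725). The largest rises also held Nrg2, a neuregulin, with 104 and 187 CPM, against 1.76 and 2.89 CPM (5.61 ± 0.31), and Igfbp4, an insulin-like growth factor binding protein, with 165 and 231 CPM, against 3.08 and 4.34 CPM (5.37 ± 0.27). The rest of the 12 were Ctsg, Ms4a3, Dmkn, Olr1, Prss57, Fcnb, Ptgr1, Gstm1, Gria3 and Nkg7, at 4.59 to 6.84. The 12 largest falls were in Sycp2, Il1b, Cstdc4, Arg2, Stfa2l1, Sirpb1b, Acod1, Cd300ld, Pla2g7, Prr5l, Wfdc17 and Il13ra1. Arg2, the mitochondrial arginase, had 1.86 and 1.17 CPM, against 607 and 937 CPM (-9.26 ± 0.40). For Sycp2, Cstdc4, Stfa2l1 and Acod1 precursors of replicate 2 held 0 UMIs, so their fitted folds depend on the prior count and are not given.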

How the data were processed

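Droplet single-cell RNA was measured in 4 spleen libraries, 2 D3TA and 2 WT, grouped by the labels. Per the file headers, the deposited matrices come from Cell Ranger 7.0.1 and hold raw UMI counts for each gene and barcode. The submitters' processing notes name mm10. The handling of intronic reads is not given in the sources used here. The files list 32285 genes, 78 of which share a symbol with another.

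Cells were filtered, gated and summed per library and stage as described in the report. UMI sums of the 8 D3TA library and stage units (20 or more cells each) were tested with edgeR 4.0.16 (filterByExpr, TMM, quasi-likelihood test, library as block, Benjamini-Hochberg over 11916 genes, 15 gate genes then left out). The library pairs the stages because they come from the same mouse, and deviations of its stages correlated at 0.196 to 0.597. Stages were separated within a library and the library was a block, so differences in level between the 2 mice are taken out. The p-values measure how far the stage differences deviate between these mice, with the spread estimated over all stages together. Single values were compared by exact permutation over libraries. On simulated counts of 10900 genes, 64% of the changes of 2-fold and 97% of those of 4-fold were found against immature cells, with 3.59% of calls false, and 46% and 94% against mature cells, with 5.41% false. The simulation changed only a small part of the genes, in precursors alone, with library effects shared by all stages. These rates therefore do not describe the real fits, in which most genes were called. Doublets were scored with Scrublet in scanpy 1.11.5 and kept. Its automatic threshold marked 0% of WT replicate 1, so a mean of the other thresholds was used there, chosen after the data were seen, and 1.47% to 5.66% of cells were marked per library.

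Genes were named by a rule: up to 12 per direction with the largest change, adjusted p under 0.05, the same sign in both libraries and at least 100 CPM where higher, without gate, immunoglobulin, receptor, mitochondrial and globin genes and unnamed models, plus up to 4 per list with the smallest p, the 5 markers and Ccnd1, Ccnd2, Ccnd3, Cdk4 and Cdk6. Other list members named in the text were chosen after their values were seen, and not every gene the rule names is reported here. The gate, the markers, the 16 lists and the tests were chosen with earlier results of these data known. Alternatives were other gate and filter settings, doublets or lymphoid cells left out, other scaling, no count filter, no block, DESeq2 1.42.0 and each library left out. Leaving out members under 2000 UMIs, leaving out those with monocyte markers and omitting scaling factors were chosen after seeing the data. Positions are from GENCODE's GRCm38 annotation, which is not shown to be the authors' release. R 4.3.3, Python 3.11.15, numpy 2.4.6, scipy 1.17.1 and pandas 2.3.3 were used.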

Additional observations from a re-analysis of the deposited data

How the results depend on the processing

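The D3TA minus WT difference in precursor share kept its sign under every alternative run, between 1.06 and 1.93 percentage points when single libraries were left out, and the replicate block of same-numbered libraries gave 1.49 points (exact permutation p = 0.5). The share of the lineage did not: it ranged from -9.93 to 3.51 points with single libraries left out and was 1.60 points with the gate at 0.25%. The cycling difference to immature cells was 29.7 to 30.4 points with 1 D3TA library left out, 52.5 without thinning and 11.7 at 1000 UMIs. Calls against immature and mature cells numbered 4935 and 7455 with no replicate block, 5915 and 7813 with DESeq2 and 6866 and 8323 with median-ratio factors, and with 1 D3TA library left out no residual degrees of freedom remained. Of 2459 values for 164 gene results, 2450 kept side and direction, judged by sign alone where 1 D3TA library was left out. For genes named among the 12 largest, that sign was set beforehand, since the rule required the same sign in both libraries. Without the cells with 4 or more monocyte markers, Klf4 (-1.78) and Ms4a6c (-0.32) turned against immature cells, Irf8 (-1.94) turned against mature cells and Ly86 (0.07) lost its call, but these 4 helped to pick the cells left out. Il6st (-0.68), which did not, also turned against immature cells. Ccnd1 turned to 0.74 against immature cells with the gate at 0.25%, and Ccnd2 to 0.26 against mature cells without scaling factors. With no replicate block Ncf4 against immature and Rac2 against mature cells lost their calls. The cause of these changes was not tested. Other scaling, no count filter, the replicate block and DESeq2 for a D3TA against WT expression test were not run because WT replicate 2 held 2 precursors. WT values are limited by 2 cells in replicate 2 and by shallow cells with B cell transcripts in replicate 1, and a count of 0 allows up to 3 UMIs.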
